A study of Caenorhabditis elegans with 15 samples.

Results

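The proteasome subunit genes of C. elegans were described on arrays of worms kept in river sediment. The members were the 33 genes whose sequence name belongs to a pas, pbs, rpt or rpn gene or to dss-1, and 34 of 19084 gene probes carried such a name, since rpn-2 had 2 probes. Of the 33 genes, 14 encode the core particle, 10 the base and 9 the lid of the regulatory particle, with the ubiquitin receptors rpn-10 and rpn-13 counted with the base. The genes were taken by name and not by any measured value.

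The proteasome is the protease that breaks down proteins marked with ubiquitin. Its barrel-shaped core holds the cutting sites inside rings of alpha and beta subunits, the base of the regulatory particle binds marked proteins and unfolds them with a ring of ATPases, and the lid removes the ubiquitin chain. In C. elegans the membrane-bound factor SKN-1A raises the transcription of these genes when the proteasome is impaired.

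The groups were whole worms of the wild-type strain N2 (Bristol), at the L4 and young adult stage, exposed for 48 h to sediment of the Elbe, the Rhine or the Danube, with 5 arrays each. Each replicate pooled the worms of 24 vials, a vial holding 20000 worms on 0.5 g of sediment. The study took Danube sediment as the baseline, and each river's sediment was mixed from subsamples. By the paper's methods, the 5 replicates of a river were set up on this mixed sediment, so they are repeat exposures to 1 sediment. The paper names its limited sample number as a caveat. Every p here therefore reflects spread between exposures and arrays only. How much a second sediment collected from the same river would differ was not measured. On every array Cy5 carried the sediment sample and Cy3 a common reference pooled from sediment-exposed and laboratory control worms. Values are log2 ratios of Cy5 to Cy3 after print-tip loess. A value of 0 means that a spot lay on the trend fitted over its part of the array, not that both dyes gave equal raw signal. Whole worms were measured, so fewer cells of a type and less RNA per cell cannot be told apart.

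A probe was kept if, in every sediment, 3 or more of the 5 arrays had its spot above the lowest quality grade of the image software. By this filter 23 of the 34 member probes passed, each for a different gene, as did 5347 of the 19084 gene probes. The core had 11 of 14 probes kept, the base 5 of 11 and the lid 7 of 9. The probes left out were pas-1, pbs-4, pbs-6, rpt-1, rpt-2, rpt-4, rpt-6, rpn-1, rpn-5, rpn-6.1 and the C23G10.4a probe of rpn-2. Of the 6 ATPases of the base only rpt-3 and rpt-5 were kept, so statements on the base rest mainly on its other subunits. Of the probes left out, pbs-4 stood above the lowest grade on 1 of 15 arrays and rpt-2 on 2, while pas-1 did so on 12 arrays but on only 2 of the Danube arrays.

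The arrays were uneven. Between 45.7% and 61.6% of the gene spots of an array had the lowest grade, and correlations between arrays over the kept probes ran between 0.003 and 0.342. Rhine replicate 1 and Danube replicate 2 had the widest ratios, with SDs over the kept probes of 1.16 and 1.11, against 0.55 to 0.93 on the other 13 arrays. Slide numbers formed 2 series, with Danube replicates 1 to 4 in the first and Danube replicate 5 with all Elbe and Rhine arrays in the second. Over all kept probes the median log2 difference was 0.08 for Elbe against Danube, 0.24 for Rhine against Danube and -0.17 for Elbe against Rhine, and the members are read against these shifts.

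In the ratio of Cy5 to Cy3, the members were on average highest in Rhine worms. The median ratio of the 23 kept members on an array lay between -0.26 and 0.19 in Elbe worms, between 0.13 and 0.40 in Rhine worms and between -0.37 and -0.07 in Danube worms, so that every Rhine array lay above every Danube array while the Elbe arrays overlapped both. Over all kept probes the array medians lay between -0.05 and 0.12 in Elbe, 0.04 and 0.27 in Rhine and -0.24 and 0.07 in Danube worms. Of the 23 members, 15 had their highest mean in Rhine worms, 5 in Elbe worms and 3 in Danube worms. Beside this, 69.9% of all kept probes were higher in Rhine than in Danube worms, and 35.7% were higher in Elbe than in Rhine worms. The lowest mean was in Elbe worms for 8 members and in Danube worms for 15, and in Rhine worms for 0. The shares of all kept probes with their highest or lowest mean in each sediment were not counted, so these counts have no matching background. None of the members' differences passed an adjusted p of 0.05 in limma, in any of the 3 comparisons. In the Cy5 signal alone, 13 of the 23 members were higher in Elbe than in Rhine worms, beside 64.8% of all kept probes. The members' median difference there was 0.05, beside 0.16 over all kept probes.

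**Figure D1:**
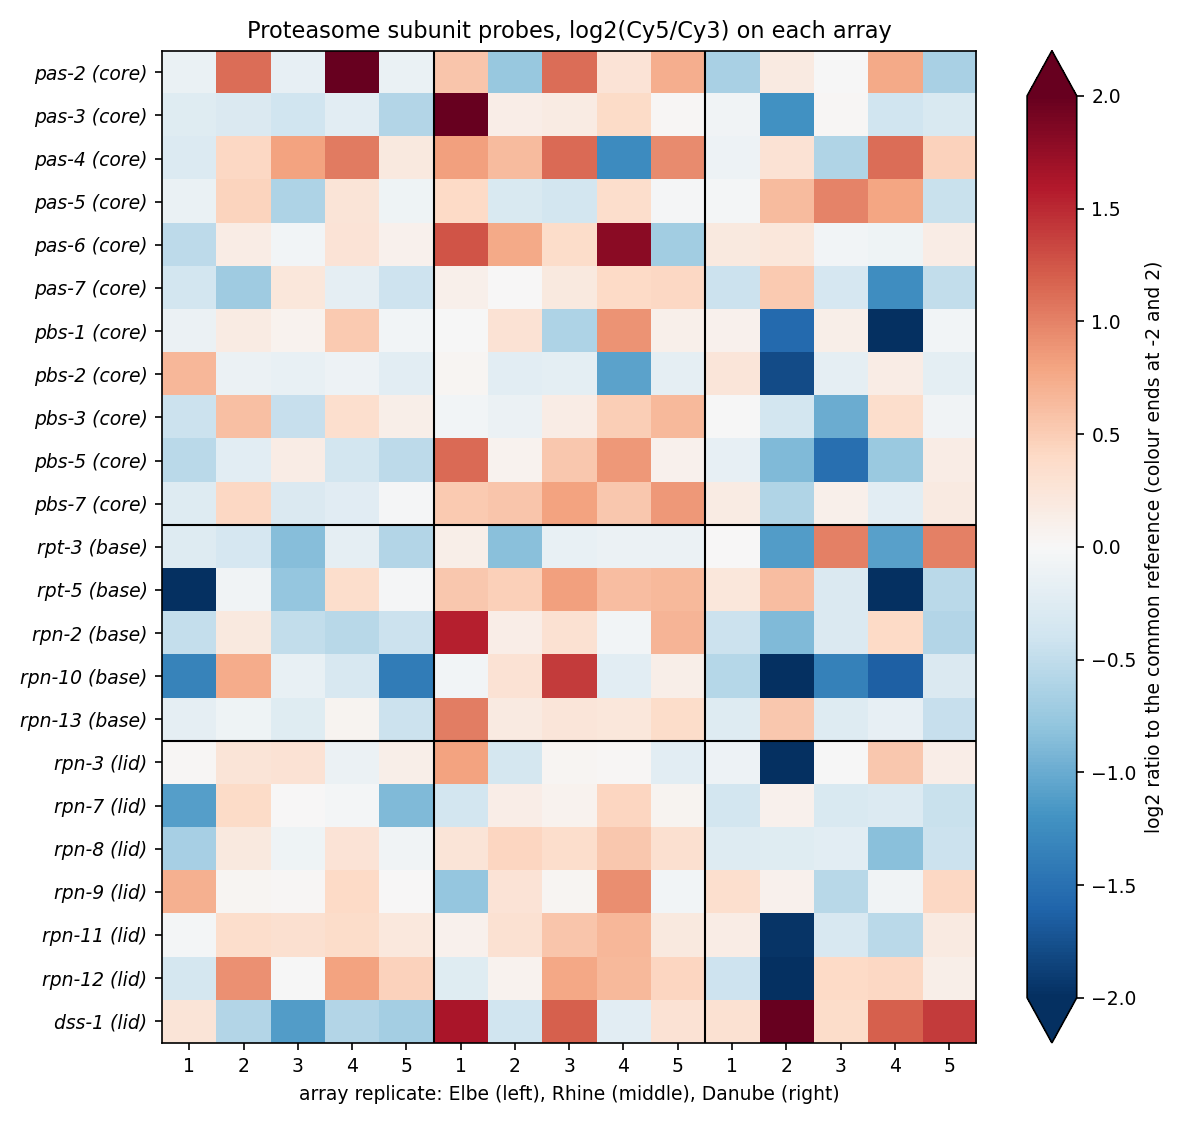
Log2(Cy5/Cy3) of the 23 kept proteasome members (rows, by core, base and lid) on each of the 15 arrays (columns, replicates 1 to 5 of Elbe, Rhine and Danube), as colour that ends at -2 and 2. The Rhine block is mostly above 0, and Danube replicate 2 holds 8 members below -1. On that array 1236 of the 5347 kept probes were below -1.

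In the core, the alpha subunits form the outer rings that gate the entry, and the beta subunits form the inner rings with the cutting sites. The 6 kept alpha genes had a median log2 fold change of 0.07 for Elbe against Danube, 0.54 for Rhine against Danube and -0.27 for Elbe against Rhine. The 5 kept beta genes had medians of 0.33, 0.73 and -0.19 in the same comparisons. The core as a whole stood at 0.20, 0.62 and -0.19.

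The gene pas-3 (Y110A7A.14), an alpha ring subunit, had log2 ratios of -0.23, -0.29, -0.40, -0.22 and -0.59 in Elbe worms, of 2.30, 0.14, 0.16, 0.38 and 0.03 in Rhine worms, and of -0.07, -1.21, 0.02, -0.39 and -0.30 in Danube worms. All Rhine arrays lay above all Elbe and all Danube arrays, and replicate 1 was far above the other Rhine arrays. It differed by 0.99 for Rhine against Danube on the log2 scale (SE 0.39, adjusted p = 0.342) and -0.95 for Elbe against Rhine (SE 0.39, adjusted p = 0.412). The spot on Rhine replicate 1 had the lowest grade, and without that array the values were 0.57 and -0.52, the second no longer with an unadjusted p under 0.05.

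The gene pas-7 (ZK945.2), another alpha subunit, was at -0.36, -0.71, 0.23, -0.18 and -0.42 in Elbe worms, at 0.10, 0.01, 0.20, 0.40 and 0.42 in Rhine worms, and at -0.43, 0.53, -0.33, -1.24 and -0.49 in Danube worms. Danube replicate 2 was above every Rhine array, and Elbe replicate 3 lay within the Rhine range. The log2 fold change for Rhine against Danube was 0.62 (SE 0.29, adjusted p = 0.386 by limma), and 0.41 without Danube replicate 4. Of the fits that left out 1 array, only those without Danube replicate 2 or Elbe replicate 3 kept an unadjusted p under 0.05. It was also not under 0.05 without spot filter, with only the 2 sediments compared or with the replicate block.

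The gene pbs-5 (K05C4.1) encodes the beta subunit that carries the chymotrypsin-like cutting site. Its log2 ratios were -0.54, -0.21, 0.15, -0.36 and -0.53 in Elbe worms, 1.14, 0.07, 0.54, 0.87 and 0.09 in Rhine worms, and -0.16, -0.88, -1.50, -0.74 and 0.15 in Danube worms. All 5 Rhine arrays lay above the Danube mean, although Danube replicate 5 and Elbe replicate 3 reached into the Rhine range. It had the lowest unadjusted p of the members for Rhine against Danube, at a log2 difference of 1.17 (SE 0.32, adjusted p = 0.338). For Elbe against Rhine it was -0.84 (SE 0.32, adjusted p = 0.385).

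The beta subunit gene pbs-7 (F39H11.5), whose product has no cutting site, was the steadiest of the core in Rhine worms. It stood at -0.26, 0.42, -0.28, -0.23 and -0.03 in Elbe worms, at 0.52, 0.55, 0.80, 0.54 and 0.87 in Rhine worms, and at 0.16, -0.61, 0.10, -0.22 and 0.19 in Danube worms. The Rhine arrays did not overlap either of the other sediments. The difference was 0.73 on the log2 scale (SE 0.23, adjusted p = 0.338) for Rhine against Danube and -0.73 (SE 0.23, adjusted p = 0.307) for Elbe against Rhine, which was the lowest adjusted p of any member.

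The remaining 7 core members had no unadjusted p under 0.05. The gene pbs-1 (K08D12.1), the beta subunit with the caspase-like site, was at -0.12, 0.17, 0.07, 0.52 and -0.06 in Elbe worms, at -0.02, 0.29, -0.62, 0.90 and 0.10 in Rhine worms, and at 0.08, -1.56, 0.12, -3.18 and -0.06 in Danube worms. Danube replicates 2 and 4 lay below all other arrays, and the other Danube arrays lay within the Elbe range. Its log2 fold change was 1.03 for Elbe against Danube (SE 0.53) and 1.05 for Rhine against Danube (SE 0.53, adjusted p = 0.412 by limma). The alpha gene pas-2 (D1054.2) was at -0.13, 1.12, -0.16, 2.31 and -0.14 in Elbe worms, at 0.56, -0.76, 1.11, 0.28 and 0.73 in Rhine worms, and at -0.66, 0.18, -0.01, 0.76 and -0.64 in Danube worms. The groups overlapped, and its log2 fold change for Elbe against Danube was 0.67 (SE 0.49). Against the prevailing direction, pas-5 (F25H2.9) had log2 fold changes of -0.41 for Elbe against Danube and -0.37 for Rhine against Danube (SE 0.31 each).

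In the base, 5 members were kept. The gene rpt-5 (F56H1.4), an ATPase of the unfolding ring, was at -4.18, -0.07, -0.77, 0.36 and -0.02 in Elbe worms, at 0.55, 0.48, 0.83, 0.62 and 0.64 in Rhine worms, and at 0.22, 0.62, -0.29, -2.06 and -0.53 in Danube worms. All Elbe arrays lay below all Rhine arrays, and the Rhine arrays had an SD of 0.13. For Elbe against Rhine the log2 fold change was -1.56 (SE 0.70, adjusted p = 0.433), and -0.75 without Elbe replicate 1, where the unadjusted p was no longer under 0.05. The other kept ATPase, rpt-3 (F23F12.6), was at -0.26, -0.34, -0.84, -0.18 and -0.59 in Elbe worms, at 0.12, -0.84, -0.14, -0.12 and -0.11 in Rhine worms, and at 0.00, -1.11, 1.01, -1.08 and 1.01 in Danube worms. The Danube arrays spread over the widest range, and no comparison had an unadjusted p under 0.05.

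The gene rpn-10 (B0205.3) encodes a receptor for ubiquitin chains. Its log2 ratios were -1.34, 0.74, -0.15, -0.32 and -1.41 in Elbe worms, -0.06, 0.28, 1.39, -0.20 and 0.11 in Rhine worms, and -0.57, -2.10, -1.36, -1.64 and -0.30 in Danube worms. It was low in Danube worms and lay below every Rhine array on all 5 Danube arrays. Rhine against Danube gave a log2 difference of 1.50 (SE 0.45, adjusted p = 0.338), the largest positive difference of a kept member, and for Elbe against Danube it was 0.70 (SE 0.45, adjusted p = 0.869).

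The gene rpn-2, measured by the C23G10.4b probe, encodes a large scaffold protein of the base. It was at -0.48, 0.19, -0.49, -0.55 and -0.42 in Elbe worms, at 1.56, 0.13, 0.31, -0.06 and 0.68 in Rhine worms, and at -0.44, -0.88, -0.29, 0.39 and -0.59 in Danube worms. Rhine replicate 1 was highest, and Elbe replicate 2 and Danube replicate 4 reached into the Rhine range. On the log2 scale it differed by 0.88 for Rhine against Danube (SE 0.32, adjusted p = 0.338) and -0.87 for Elbe against Rhine (SE 0.32, adjusted p = 0.375). The C23G10.4a probe of the same gene was above the lowest grade on 3 of 15 arrays and gave 0.66 (SE 0.78) for Rhine against Danube in the fit over all probes.

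The gene rpn-13 (C56G2.7), the other kept ubiquitin receptor, was at -0.19, -0.08, -0.24, 0.05 and -0.43 in Elbe worms, at 1.02, 0.17, 0.24, 0.23 and 0.37 in Rhine worms, and at -0.26, 0.54, -0.26, -0.17 and -0.47 in Danube worms. The Rhine arrays lay above all Elbe arrays and above all Danube arrays but replicate 2. Its log2 fold change was 0.53 for Rhine against Danube (SE 0.25, adjusted p = 0.386) and -0.58 for Elbe against Rhine (SE 0.25, adjusted p = 0.412). Without Rhine replicate 1, its highest array, these were 0.38 and -0.43, neither with an unadjusted p under 0.05, and the unadjusted p for Rhine against Danube was also not under 0.05 without spot filter, with the replicate block or without any single Elbe array.

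In the lid, rpn-11 (K07D4.3) encodes the metalloprotease that removes ubiquitin chains, and rpn-8 (R12E2.3) its inactive partner. The log2 ratios of rpn-8 were -0.67, 0.19, -0.09, 0.28 and -0.08 in Elbe worms, 0.26, 0.43, 0.35, 0.55 and 0.33 in Rhine worms, and -0.26, -0.24, -0.21, -0.84 and -0.44 in Danube worms. Rhine and Danube arrays did not overlap, and the Rhine SD of 0.11 was the lowest of any kept member in any sediment. Rhine against Danube gave a log2 difference of 0.78 (SE 0.23, adjusted p = 0.338), Elbe against Danube 0.32 and Elbe against Rhine -0.46, and neither of the Elbe values had an unadjusted p under 0.05.

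For rpn-11 the values were -0.03, 0.35, 0.33, 0.36 and 0.20 in Elbe worms, 0.09, 0.30, 0.56, 0.67 and 0.20 in Rhine worms, and 0.15, -1.96, -0.31, -0.53 and 0.18 in Danube worms. Elbe and Rhine arrays overlapped, and 3 of the 5 Danube arrays lay below all of them. The log2 fold change was 0.74 for Elbe against Danube (SE 0.34, adjusted p = 0.783) and 0.86 for Rhine against Danube (SE 0.34, adjusted p = 0.346). Without Danube replicate 2 these were 0.37, no longer with an unadjusted p under 0.05, and 0.49.

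The small acidic lid subunit gene dss-1 (Y119D3B.15) lay the other way. It was at 0.26, -0.59, -1.12, -0.58 and -0.69 in Elbe worms, at 1.64, -0.39, 1.19, -0.21 and 0.28 in Rhine worms, and at 0.31, 2.92, 0.37, 1.19 and 1.4 in Danube worms. All 5 Elbe arrays lay below all 5 Danube arrays, while the Rhine arrays spread over both ranges. The log2 fold change for Elbe against Danube was -1.78 (SE 0.50, adjusted p = 0.542), with a 95% interval of -2.83 to -0.73. For Elbe against Rhine it was -1.05 (SE 0.50, adjusted p = 0.466) and for Rhine against Danube -0.73 (SE 0.50, adjusted p = 0.515). Leaving out Danube replicate 2, its highest array, gave -1.36 for Elbe against Danube.

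The other lid members, rpn-3, rpn-7, rpn-9 and rpn-12, are scaffold subunits and had no unadjusted p under 0.05. On Danube replicate 2, rpn-3 stood at -2.71 and rpn-12 at -2.10, against -0.10 to 0.54 and -0.41 to 0.41 on the other Danube arrays. Their log2 fold changes for Rhine against Danube were 0.49 for rpn-3 (SE 0.47), 0.32 for rpn-7 (SE 0.29), 0.04 for rpn-9 (SE 0.30) and 0.65 for rpn-12 (SE 0.43).

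**Figure D2:**
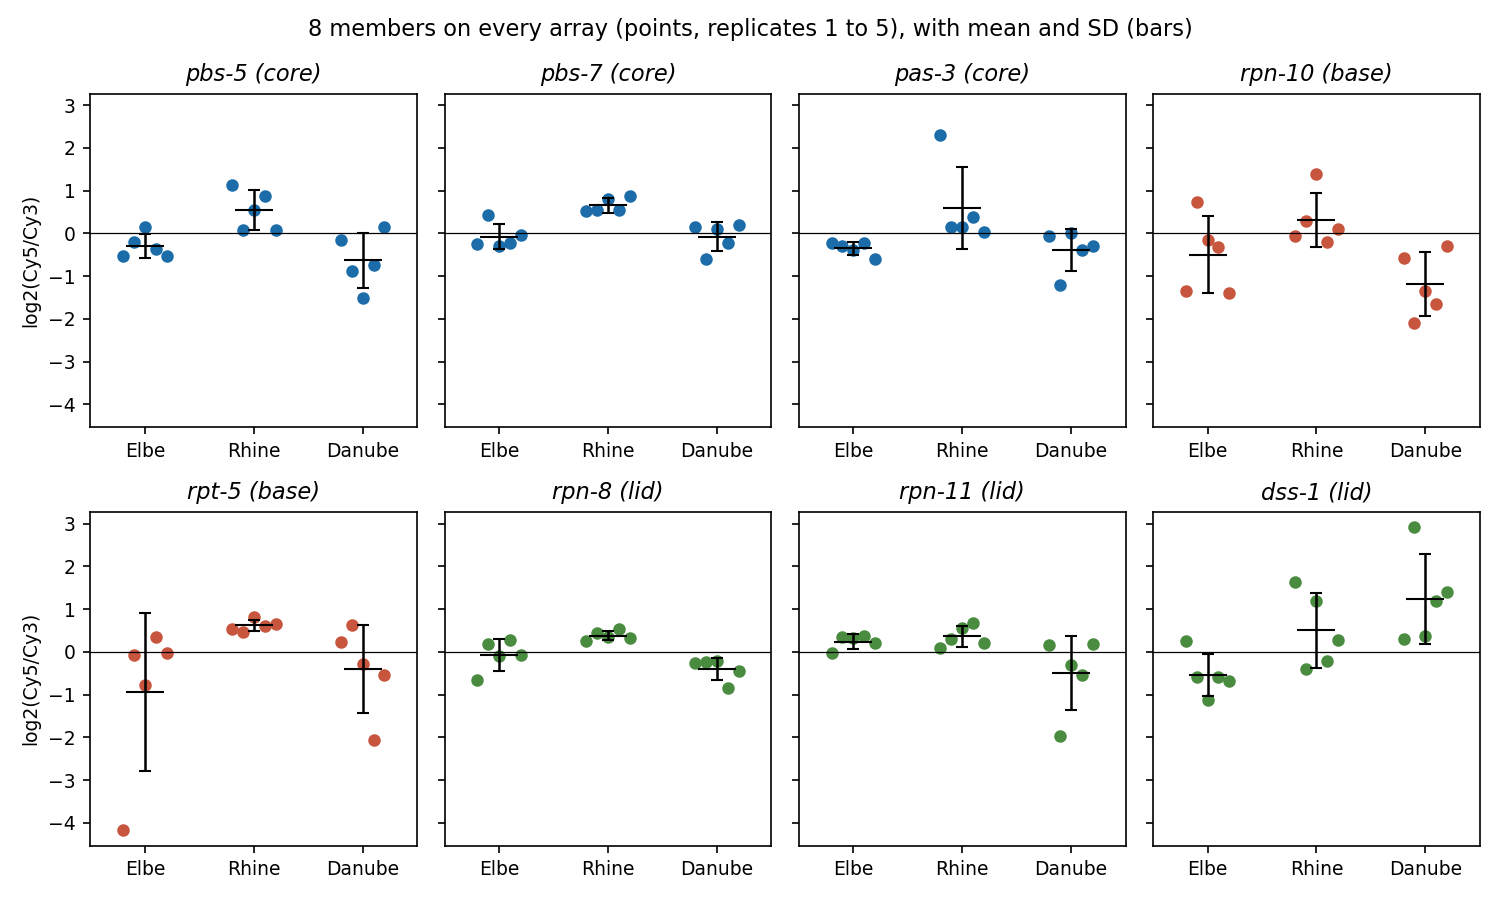
Log2(Cy5/Cy3) of 8 members on each array (points) in Elbe, Rhine and Danube worms, with the mean and SD of 5 arrays (bars). The Rhine arrays of pbs-7 and rpn-8 lie close together above all Danube arrays, and dss-1 is lower on all 5 Elbe arrays than on any Danube array.

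In the Cy5 to Cy3 ratio, Elbe against Danube had the fewest members at an unadjusted p under 0.05. By limma, 0 of 23 members had an adjusted p under 0.05 (0.0187% of all kept probes did), and 2 had an unadjusted p under 0.05 (6.32% of all kept probes), rpn-11 higher and dss-1 lower in Elbe worms. Both also passed the thresholds of the study's methods, namely an unadjusted p under 0.05 together with a fold of 1.4 or more, or of 0.7 or less, and 6.28% of the kept probes did so. Of the 23 members 15 were above 0, beside 57.1% of all kept probes, and the members' median was 0.19, beside 0.08. Only dss-1 had groups that did not overlap, in the lower direction, which held for 0.561% of the kept probes. The median was 0.20 in the core, -0.05 in the base and 0.32 in the lid, and without Elbe replicate 1 the base stood at 0.04. The core stood at 0.08 without Elbe replicate 4 and the lid at 0.20 without Danube replicate 2. A t-test with pooled variance, run here on the same ratios, put only dss-1 past the thresholds, beside 5.55% of all kept probes. It put 0 members past an adjusted p of 0.05. The study's own methods name an ANOVA. The members' median lay between 0.06 and 0.26 when single arrays were left out, lowest without Danube replicate 3.

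Rhine against Danube gave the largest count. No member of 23 had an adjusted p under 0.05 (0% of all kept probes), and 9 had an unadjusted p under 0.05, all higher in Rhine worms, beside 12.9% of the kept probes in either direction and 11.4% in the higher direction. These were pas-3, pas-7, pbs-5 and pbs-7 of the core, rpn-2, rpn-10 and rpn-13 of the base, and rpn-8 and rpn-11 of the lid, with adjusted p between 0.338 and 0.386. All 9 passed the methods' thresholds, as did 11.4% of the kept probes in that direction. The t-test put 5 of them past these thresholds, pbs-5, pbs-7, rpn-2, rpn-10 and rpn-8, beside 7.11% of the kept probes in either direction. The groups did not overlap for pas-3, pbs-7, rpn-10 and rpn-8, in the higher direction, which held for 1.87% of the kept probes. Of the 23, 20 were above 0, beside 69.9%, and pas-5, rpt-3 and dss-1 were below it. The members' median was 0.62, beside 0.24 over all kept probes.

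Between the particles, the median for Rhine against Danube was 0.62 in the core, 0.88 in the base and 0.49 in the lid, with 4 of 11, 3 of 5 and 2 of 7 members at an unadjusted p under 0.05. The ranges overlapped widely, at -0.37 to 1.17 in the core, -0.18 to 1.50 in the base and -0.73 to 0.86 in the lid, and the difference between the particles was not tested. The lid median was 0.21 without Danube replicate 2, and 0.67 without Danube replicate 4. In the fit over all 34 member probes, 9 had an unadjusted p under 0.05 in the higher direction (4.2% of all probes), 28 were above 0 (56.4% of all probes) and the median was 0.62, beside 0.10 over all 19084 probes.

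Slide series was bound up with this comparison, since 4 of the 5 Danube arrays came from the first series. With slide series as a block, Rhine worms are set against Danube replicate 5 alone. There 17 of 23 members were above 0, beside 62.6% of all kept probes, and the median was 0.45, beside 0.17. There rpn-2 stood at 1.11, pas-3 at 0.90, rpn-13 at 0.87, rpn-8 at 0.82, pas-7 at 0.71, rpn-10 at 0.60, pbs-7 at 0.47, pbs-5 at 0.39 and rpn-11 at 0.18, all with an adjusted p of 1. For dss-1 the block gave -1.94 for Elbe against Danube (adjusted p = 1), beside -0.01 over all kept probes.

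**Figure D3:**
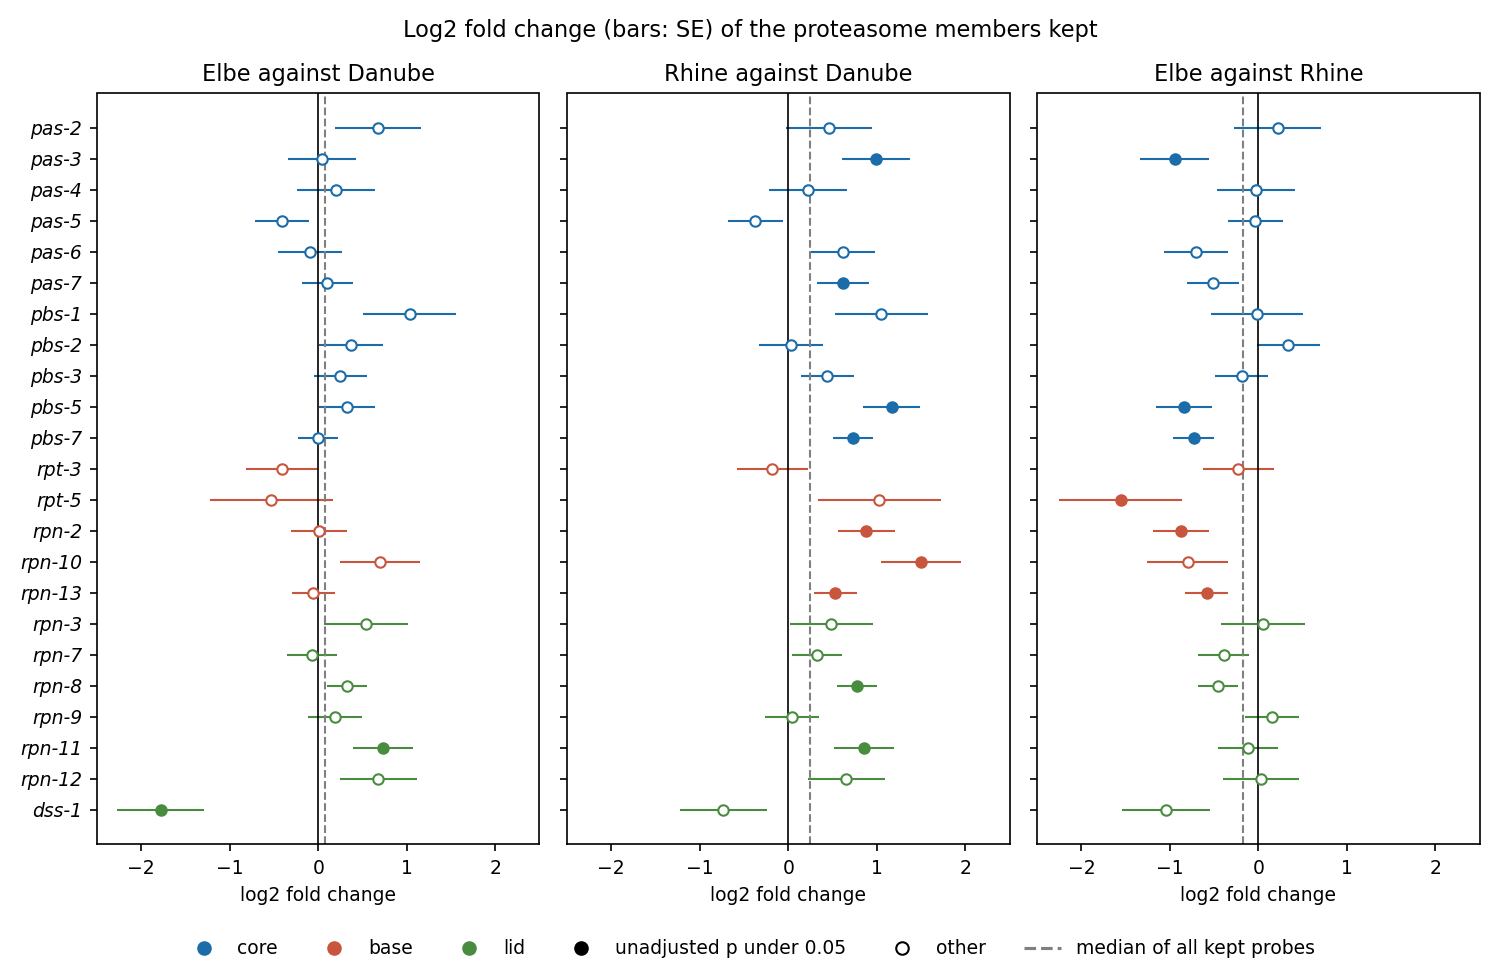
Log2 fold change of each kept member (points, bars are SE) in the 3 comparisons, coloured by particle and filled where the unadjusted p was under 0.05. The dashed line is the median of all kept probes, and 9 members in Rhine against Danube and 6 in Elbe against Rhine are filled on the same side of it.

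For Elbe against Rhine, all arrays came from the same slide series. By limma, 0 of 23 members had an adjusted p under 0.05 (0% of all kept probes), and 6 had an unadjusted p under 0.05, all lower in Elbe worms, beside 10.7% of the kept probes in either direction and 8.17% in the lower direction. These were pas-3, pbs-5 and pbs-7 of the core and rpt-5, rpn-2 and rpn-13 of the base, and all 6 passed the methods' thresholds, as did 8.02% of the kept probes in that direction. In the lid the count was 0 of 7. Groups did not overlap for pas-3, pbs-7, rpt-5 and rpn-13, in the lower direction, as for 2.67% of the kept probes. Of the 23, 5 were above 0, beside 35.7% of all kept probes, and the median was -0.39, beside -0.17. The core stood at -0.19, the base at -0.80 and the lid at -0.12. Leaving out single arrays put the core between -0.43 (without Rhine replicate 4) and -0.07 (without Elbe replicate 1), and the lid between -0.19 (without Rhine replicate 1) and -0.05 (without Rhine replicate 4). The counts rested in part on Rhine replicate 1, without which 2 members, pbs-7 and rpn-2, passed the thresholds. Without that array 8.85% of all kept probes passed them, in either direction.

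The comparisons of Elbe and Rhine with Danube share the Danube arrays, and the members' values in both hold the same Danube deviations. On Danube replicate 2, 8 of the 23 members were below -1, and on Danube replicate 4 it was 5, against 0 to 2 on the other 3 Danube arrays. Of the 5347 kept probes, 1236 and 627 were below -1 on these 2 arrays, against 135 to 269 on the other 3. Without these 2 arrays, a choice made after seeing the data, the lid median for Rhine against Danube was 0.30, and 6 of the 9 members still had an unadjusted p under 0.05, pbs-5 at 1.05, rpn-2 at 0.96, rpn-13 at 0.74, rpn-8 at 0.68, pas-7 at 0.64 and pbs-7 at 0.51, while rpn-10 at 1.05, pas-3 at 0.72 and rpn-11 at 0.36 did not.

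**Figure D4:**
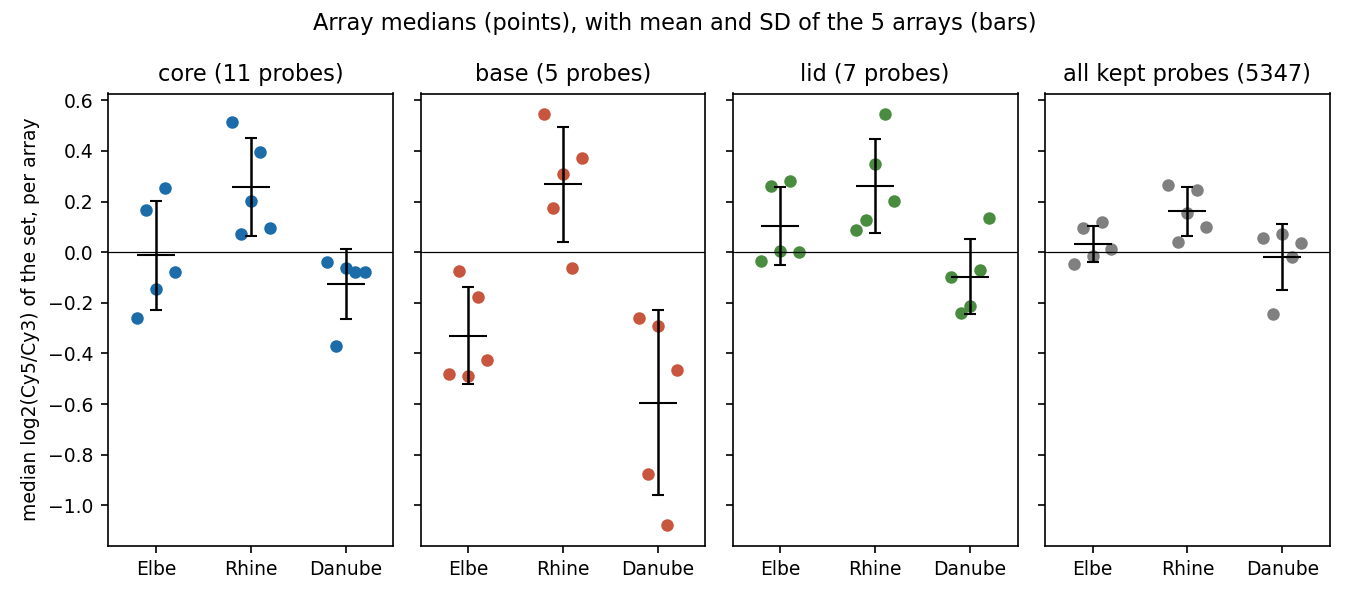
Median log2(Cy5/Cy3) over the core, base and lid members kept and over all kept probes on each array (points) of Elbe, Rhine and Danube worms, with the mean and SD of the 5 arrays (bars). The base medians are between -0.49 and -0.07 on the Elbe arrays, between -0.06 and 0.55 on the Rhine arrays and between -1.08 and -0.26 on the Danube arrays.

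Both channels were also read apart, each centred on its array. For Rhine against Danube the Cy5 signal, which carried the sediment samples, differed by a median of 0.09 over the 23 members, and the Cy3 signal, which carried the same reference pool on every array, by -0.34, beside -0.01 and -0.18 over all kept probes. Of the 9 members with an unadjusted p under 0.05, 8 had a lower Cy3 signal on the Rhine arrays, and in 7 the Cy3 difference was the larger of the pair. For pbs-5 the Cy5 difference was -0.07 and the Cy3 difference -1.15, for pbs-7 they were -0.24 and -0.89, and for rpn-8 they were -0.39 and -1.09. By contrast rpn-10 differed by 0.70 in Cy5 and -0.72 in Cy3, and rpn-13 by 0.51 in Cy5 and 0.06 in Cy3. In the Cy5 signal alone, 0 members passed the methods' thresholds for Rhine against Danube (9.01% of the kept probes) and 0 for Elbe against Rhine (9.05%), while 3 did for Elbe against Danube (8.77%), where the members' Cy5 median was 0.35.

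For Elbe against Rhine the members' Cy5 signal differed by a median of 0.05 and their Cy3 signal by 0.50, beside 0.16 and 0.29 over all kept probes. All 6 members with an unadjusted p under 0.05 had a lower Cy5 and a higher Cy3 signal on the Elbe arrays, with Cy5 differences between -0.71 for rpt-5 and -0.03 for rpn-2. Their Cy3 differences lay between 0.30 and 0.78, and in all 6 the Cy3 difference was the larger of the pair. For dss-1, Elbe against Danube, the Cy5 difference of -1.19 was larger than the Cy3 difference of 0.61. A ratio divides out what the spot itself adds to both channels, and how far the Cy3 differences were of that kind was not tested.

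**Figure D5:**
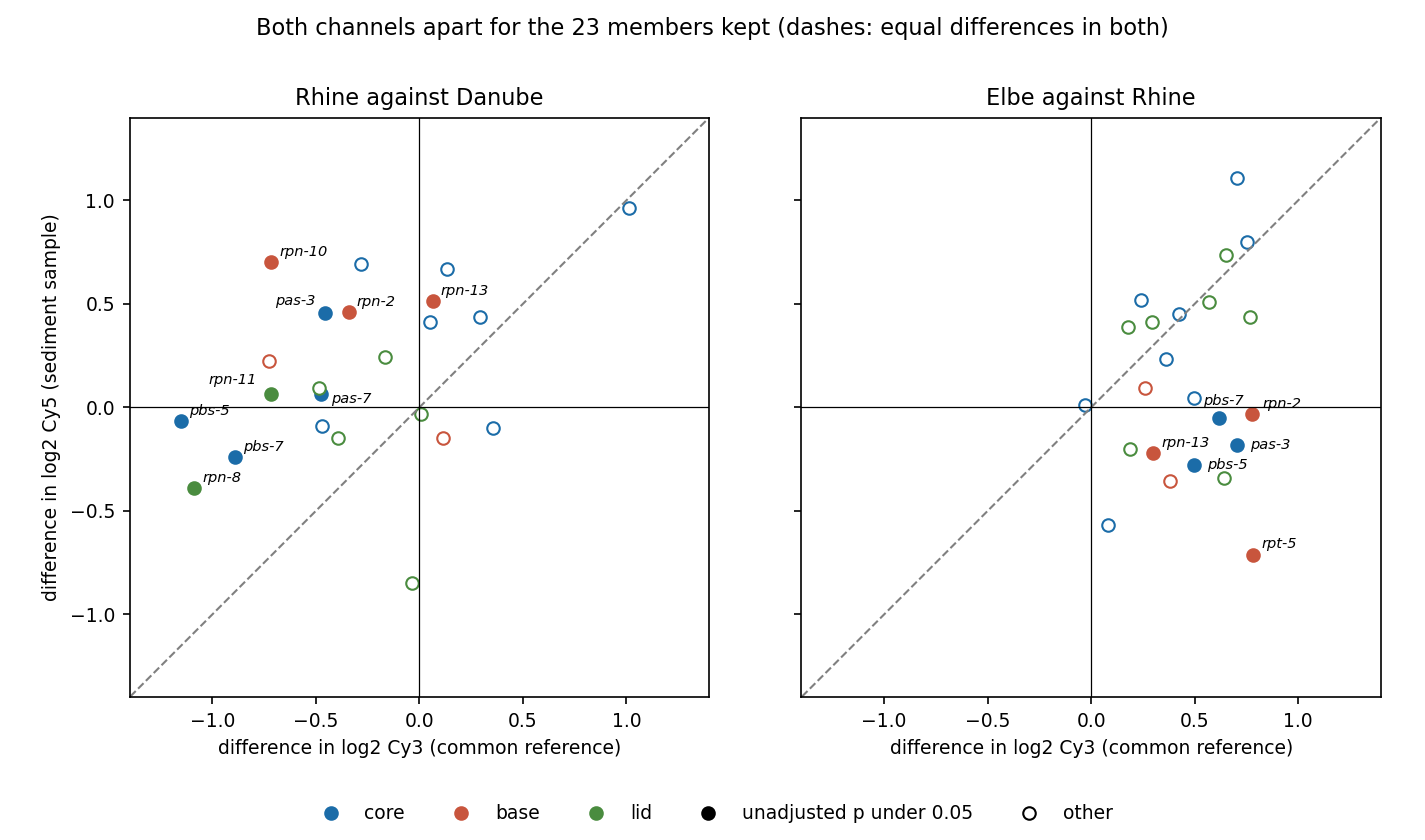
Difference in centred log2 Cy5 signal (sediment sample, vertical) against that in centred log2 Cy3 signal (common reference, horizontal) for the 23 kept members, in Rhine against Danube and in Elbe against Rhine, filled where the unadjusted p was under 0.05. In Rhine against Danube pbs-5, pbs-7 and rpn-8 lie at the left with Cy5 differences below 0, and rpn-10 has differences of like size in both channels.

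The members moved little together from array to array. Over all 15 arrays the median correlation of 253 pairs of kept members was 0.08, beside 0.04 over all kept probes. It was 0.06 within the base and -0.02 within the lid. The mean of each sediment was taken off first, so differences between sediments do not enter. These are descriptions, and the points share array and reference. The highest pair was rpt-5 and rpn-8, with 0.91, and both shared a low value on Elbe replicate 1 and on Danube replicate 4.

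The 11 probes left out did not pass the spot filter, and their values come from the fit over all 19084 probes. Over all probes, 4.24% had an unadjusted p under 0.05 for Elbe against Danube, 6.75% for Rhine against Danube and 6.3% for Elbe against Rhine. The 5 of the 11 below that p in a comparison, named after their values were seen, were pas-1 (1.00) and rpt-1 (1.59) for Rhine against Danube, rpn-1 (-2.05) for Elbe against Danube, and rpt-6 (-0.88) and rpn-5 (-1.10) for Elbe against Rhine, and none had an adjusted p below 0.728. The log2 fold changes of the 11 ran from -2.05 to 1.27 for Elbe against Danube, from -1.24 to 1.59 for Rhine against Danube and from -1.10 to 0.28 for Elbe against Rhine. In Rhine worms 8 of the 11 were above Danube.

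The rest of the ubiquitin pathway was given by 5 lists of 57 genes, which hold ubiquitin and its activating enzyme, the conjugating enzymes, the cullin ligase core, the shuttle and segregase proteins, and genes that control proteasome genes or act in degradation at the endoplasmic reticulum. Of these, 23 genes were kept. Their median was 0.15 for Elbe against Danube, 0.28 for Rhine against Danube and -0.18 for Elbe against Rhine, beside 0.08, 0.24 and -0.17 over all kept probes. None had an adjusted p under 0.05 in limma. At an unadjusted p under 0.05 there were 0, 2 higher and 2 lower of 24 probes, beside 6.32%, 11.4% higher and 8.17% lower of all kept probes. For Rhine against Danube these were ubql-1, the worm ubiquilin and a shuttle of ubiquitinated proteins, at a log2 difference of 1.57 (SE 0.55, adjusted p = 0.338), and uev-1, a ubiquitin-conjugating enzyme variant, with 0.81 (SE 0.32, adjusted p = 0.354). The same genes were the 2 lower for Elbe against Rhine, ubql-1 with -1.29 and uev-1 with -0.77 (adjusted p = 0.412). The polyubiquitin gene ubq-1 stood at 0.16 for Rhine against Danube (SE 0.21), and cdc-48.1 and cdc-48.2, which encode the segregase that pulls ubiquitinated proteins apart, at 0.69 (SE 0.36) and 0.49 (SE 0.33) for Elbe against Danube.

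Marker genes of tissues were read beside the members. For Rhine against Danube the median was 0.28 over 10 kept germline and oocyte markers, 0.36 over 10 sperm markers, 0.13 over 9 intestine and yolk markers, 0.49 over 8 body wall muscle markers and 0.43 over 6 neuron markers, beside 0.62 for the members. For Elbe against Rhine they were -0.07, 0.16, -0.27, -0.21 and -0.33, beside -0.39 for the members. For Elbe against Danube they were 0.18, 0.46, -0.05, 0.28 and 0.31, beside 0.19. No marker had an adjusted p under 0.05 in limma, and their part in the members' values was not tested.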

How the data were processed

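The samples were 15 two-colour arrays of C. elegans worms, 5 for each of the Elbe, Rhine and Danube sediments. For every array the authors deposited spot intensities of both channels from BlueFuse 3.4, on a linear scale, without normalization or a background value. The authors also deposited a confidence score per spot with a grade, the lowest being given to scores under 0.05. The authors deposited, in addition, a table of linear ratios after print-tip Lowess and median polishing. Its rows were matched to probes by their correlation with the Cy5 signal, accepted over 0.99, and 18320 of 18653 rows passed. All 34 member probes were matched in this way (lowest correlation 0.998). Row order, which did not enter the match, had a rank correlation of 0.9992 with the sorted identifiers. The deposited table thus follows the Cy5 signal, so the reference is not divided out there. Genome build: not given in the sources used here.

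Here, limma 3.58.1 in R 4.3.3 turned the intensities into log2(Cy5/Cy3), with print-tip loess fitted in each of 48 blocks (control spots at weight 0) and the spots of a probe averaged. One lmFit and eBayes fit of the 15 arrays compared the sediments, and p was adjusted after Benjamini and Hochberg over the 5347 probes kept, at 0.05. The 13737 probes left out enter only the fit over all probes. Unadjusted p in the text is from these fits. The code was tested on simulated data.

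Full values are given for kept members with an unadjusted p under 0.05 in any comparison and, in the core, base and lid, for those 2 with the lowest p in each comparison. dss-1 is named also because an earlier account of these data named it. For the pathway lists up to 2 genes per comparison with the lowest p qualify. The members and lists were chosen with earlier results of these data known. Replicate numbers were not used as a pairing in the main fit. Deviations of same-numbered arrays correlated at -0.04 to 0.13, and 2 of 15 pairs were over 0.1. Arrays with different numbers were not set beside these, so whether the numbers mark a pairing was not tested. Alternatives were other normalizations, spot filters and weights, blocks, left-out arrays, the deposited ratios and a t-test with pooled variance. The number of arrays limits the precision.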

Additional observations from a re-analysis of the deposited data

Results flagged for a closer look

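In 81 sets of 5 arrays (23 members and 4 medians, in each sediment) the array farthest out was set against the others, and 11 had an array whose gap to its nearest neighbour exceeded Dixon's 95% critical value of 0.71 of the range, where chance gives about 1 in 20. In Elbe worms, the low array of rpt-5 was replicate 1 at -4.18, against -0.77 for the next. There the high array of pbs-2 was replicate 1 at 0.66 and that of rpn-2 replicate 2 at 0.19. In Rhine worms, the high arrays of pas-3 (2.30) and rpn-13 (1.02) were both replicate 1, the array with the widest ratios, and the low arrays of pas-4 (-1.26) and pbs-2 (-1.07) were both replicate 4. The low array of rpt-3 in Rhine worms was replicate 2 at -0.84. In Danube worms, replicate 2 was the low array for rpn-3 (-2.71), for pbs-2 (-1.79) and for the median of the core (-0.37, against -0.08 for the next). The spots of pas-3 on Rhine replicate 1 and of rpn-3 on Danube replicate 2 had the lowest grade. No member had all Elbe and all Rhine arrays on opposite sides of the Danube mean, and none differed between Elbe and Rhine at an adjusted p of 0.05 in limma, where 6 had an unadjusted p under 0.05.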

How the results depend on the processing

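The count of members with an adjusted p under 0.05 was 0 in every comparison and alternative run with limma or the t-test with pooled variance. Past the methods' thresholds, leaving out single arrays gave 1 to 3 members for Elbe against Danube, 7 to 9 for Rhine against Danube and 2 to 7 for Elbe against Rhine. The shares of all kept probes past them, in either direction, ran from 4.86% to 7.39%, from 9.01% to 14.1% and from 8.04% to 12.4%. The 2 members for Elbe against Rhine came without Rhine replicate 1, where 8.85% of all kept probes passed. The medians of all members then ran from 0.06 to 0.26, from 0.51 to 0.67 and from -0.46 to -0.25 in these comparisons. For Elbe against Danube the core median ran from 0.078 to 0.30, the lid median from 0.20 to 0.47 and the base median from -0.14 to 0.042. For Rhine against Danube the lid median ran from 0.21 to 0.67, and for Elbe against Rhine the core median from -0.43 to -0.075. With the replicate block, 1 member passed for Elbe against Danube, beside 6.3% of all kept probes. It was also 1 with only the 2 sediments compared (6.58%), the t-test (5.55%), a loess curve per array (5.24%) and median centring (4.99%). With the replicate block the unadjusted p of pas-7 and rpn-13 for Rhine against Danube was also no longer under 0.05. The same held for rpt-5 in Elbe against Rhine. This left 7 and 5 members past the thresholds, beside 12.9% and 11% of all kept probes. The t-test gave 5 members for Rhine against Danube, beside 7.11%. A loess curve per array gave medians for Rhine against Danube of 0.81 in all members, 1.00 in the core and 0.73 in the lid, and for Elbe against Rhine of -0.60, -0.60 and -0.34. Median centring moved the median of all kept probes to 0.28, 0.80 and -0.53 in the 3 comparisons. It gave members' medians of 0.42 for Elbe against Danube (core 0.41, lid 0.69), of 1.16 for Rhine against Danube (core 1.18, base 1.30, lid 1.13) and of -0.70 for Elbe against Rhine (core -0.70, base -1.10, lid -0.55). With no spot filter the base median for Rhine against Danube was 0.53. Good spots on all 15 arrays left 7 members, of which 1, 4 and 2 passed, beside 8.27%, 17.7% and 13.9% of the 2213 probes left. The medians were 0.95 (core) and 0.65 (lid) for Rhine against Danube and -0.79 (core) for Elbe against Rhine. A confidence of at least 0.5 left 0 members. Array weights gave a median of 0.46 for Rhine against Danube. With slide series as a block, the medians for Rhine against Danube were 0.45 and, in the lid, 0.18, and the lid median for Elbe against Danube was 0.060. In the authors' table, 3 passed for Elbe against Danube, pbs-1 at 1.49 and pbs-2 at 2.07, which did not pass in the ratios, and dss-1 at -1.20, while 0 passed for Rhine against Danube and for Elbe against Rhine. Its medians were 0.34 (base 0.29) for Elbe against Danube, 0.091 (core 0.43, base 0.46, lid -0.029) for Rhine against Danube and 0.039 (core 0.039, base -0.23, lid 0.41) for Elbe against Rhine, and for Rhine against Danube pbs-5 (-0.057), pbs-7 (-0.24) and rpn-8 (-0.38) changed direction. The other alternatives were added after seeing the data. Cy5 signal alone gave 3 for Elbe against Danube, beside 8.77% of all kept probes, and 0 for the others, beside 9.01% and 9.05%. Its medians were 0.35 (base 0.29), 0.092 (core 0.41, base 0.46, lid -0.031) and 0.046 (core 0.046, base -0.22, lid 0.41). It gave -0.066 for pbs-5, -0.24 for pbs-7 and -0.39 for rpn-8 in Rhine against Danube. Leaving out lowest-grade spots put the medians of all members and of the core for Elbe against Danube at -0.0012. Without Danube replicates 2 and 4 the lid median for Rhine against Danube was 0.30. Where a value moved, the cause was not tested. The spot filter left out 11 of 34 member probes.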
